A study of Mus musculus with 33 samples.

Results

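Disease-associated microglia are microglia, the resident macrophages of the brain, that gather around amyloid deposits and switch on genes for phagocytosis, lysosomal digestion, lipid handling and chemokine release, while part of their resting gene set is turned down. The receptor Trem2 and its signalling partner Tyrobp act upstream of much of this programme in mouse models of amyloid deposition. A list of 36 genes of the programme was followed here in RNA-Seq of the CA1 region of the mouse hippocampus, a main site of memory formation. The genes were picked by name, with earlier results of these data known. All 36 were found among the 38355 genes of the count files of the aged mice and among the 40678 loci of the files of the young mice, which give FPKM, a level scaled to transcript length and library size. In those files Aif1 shared 1 locus with its neighbour Lst1, so its young values are those of the joined locus.

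Of the 33 samples labelled, 32 had values. In the aged experiment, mice of 8 to 10 months received 10 days of intraperitoneal injections, and the groups were APP/PS1-21 mice given the bromodomain inhibitor JQ1 at 50 mg per kg (6 libraries), APP/PS1-21 mice given vehicle with 10% DMSO (6 libraries) and WT mice given the same vehicle (4 libraries, replicates 1, 3, 4 and 5, with replicate 2 not analysed here). In the young experiment, C57B/6JRj mice of 3 months were injected for 13 days with JQ1 at 50 mg per kg (8 libraries) or vehicle with 10% DMSO (8 libraries). JQ1 blocks the BET family of chromatin readers, which bind acetylated histones and help RNA polymerase leave promoters. The APP/PS1-21 line carries transgenes driven by the Thy1 promoter, so the transgenes are expressed in neurons. The strain label of the aged WT mice names the APP/PS1-21 line in a C57B/6 background, and their titles, which say WT, were used for grouping. JQ1-treated aged WT mice were not analysed here, and the mice had been through a water maze test before they were killed.

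The aged libraries held 14605459 to 25339482 counts on genes, so that 3 counts came to 0.118 to 0.205 CPM, the unit used for counts scaled to library size. FPKM hold no counts, and the depth of the young libraries is unknown. The CA1 pyramidal markers Fibcd1, Wfs1, Pou3f1 and Man1a summed to between 455 and 820 CPM in the aged libraries, against 36.1 to 174 CPM for 4 markers of dentate granule neurons. In WT vehicle replicate 4, 5 markers of the choroid plexus summed to 3155 CPM, against 23.2 to 142 CPM in the other 15 aged libraries. No source used here says whether libraries of a group came from separate mice, so p-values measure the spread between libraries.

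In the genes given here, the library labelled APP JQ1 replicate 4 went against its label. Thy1, the gene whose promoter drives the transgenes, stood at 820 CPM in it, below the 841 to 1070 CPM of the WT vehicle libraries and far below the 1618 to 2342 CPM of the other 11 APP libraries. App was at 1781 CPM, against 1853 to 1992 CPM in WT vehicle and 2070 to 2716 CPM in the others. Of the 36 members, 31 were lower in this library than in every other APP library. Against the 4 WT vehicle libraries, 25 lay within the range, 7 below it and 4 above it (Igf1, Spp1, Capg and Hif1a). Gfap, an astrocyte filament gene that rises around amyloid, was at 322 CPM in it against 1262 to 5166 CPM in the other APP libraries, and it was above every WT vehicle library. The counts of members called, and the values that rest on the APP JQ1 group, are therefore given with and without the library labelled APP JQ1 replicate 4. Over all genes, that library was nearest within its group to APP JQ1 replicate 3. The chi-square per gene, a measure of the difference between libraries, was 9.63 for this pair. It was 44.5 to 63.5 between that library and the other APP JQ1 libraries. Pairs with WT libraries were not measured in this way.

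In vehicle-treated mice, the question was which members differ between the APP and WT genotypes. Of the 36 members, 31 were called higher in APP vehicle than in WT vehicle and 0 lower, at an adjusted p under 0.05 by edgeR's quasi-likelihood test over 16962 genes. Over all genes tested, 2.49% were called higher and 0.0825% lower (2.57% in either direction), and 34 members had an unadjusted p under 0.05, as had 14.4% of all genes. The median log2 fold change (log2 change) of the members was 2.11, against 0.01 over all genes. For 32 members every APP vehicle library was above every WT vehicle library, which 4.94% of all genes showed, with 2.05% of all genes apart in the other direction. Because the members were chosen with earlier results of these data known, these counts describe the list and do not test it. In a bulk tissue sample, more microglia and more RNA per microglial cell cannot be told apart.

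**Figure D1:**
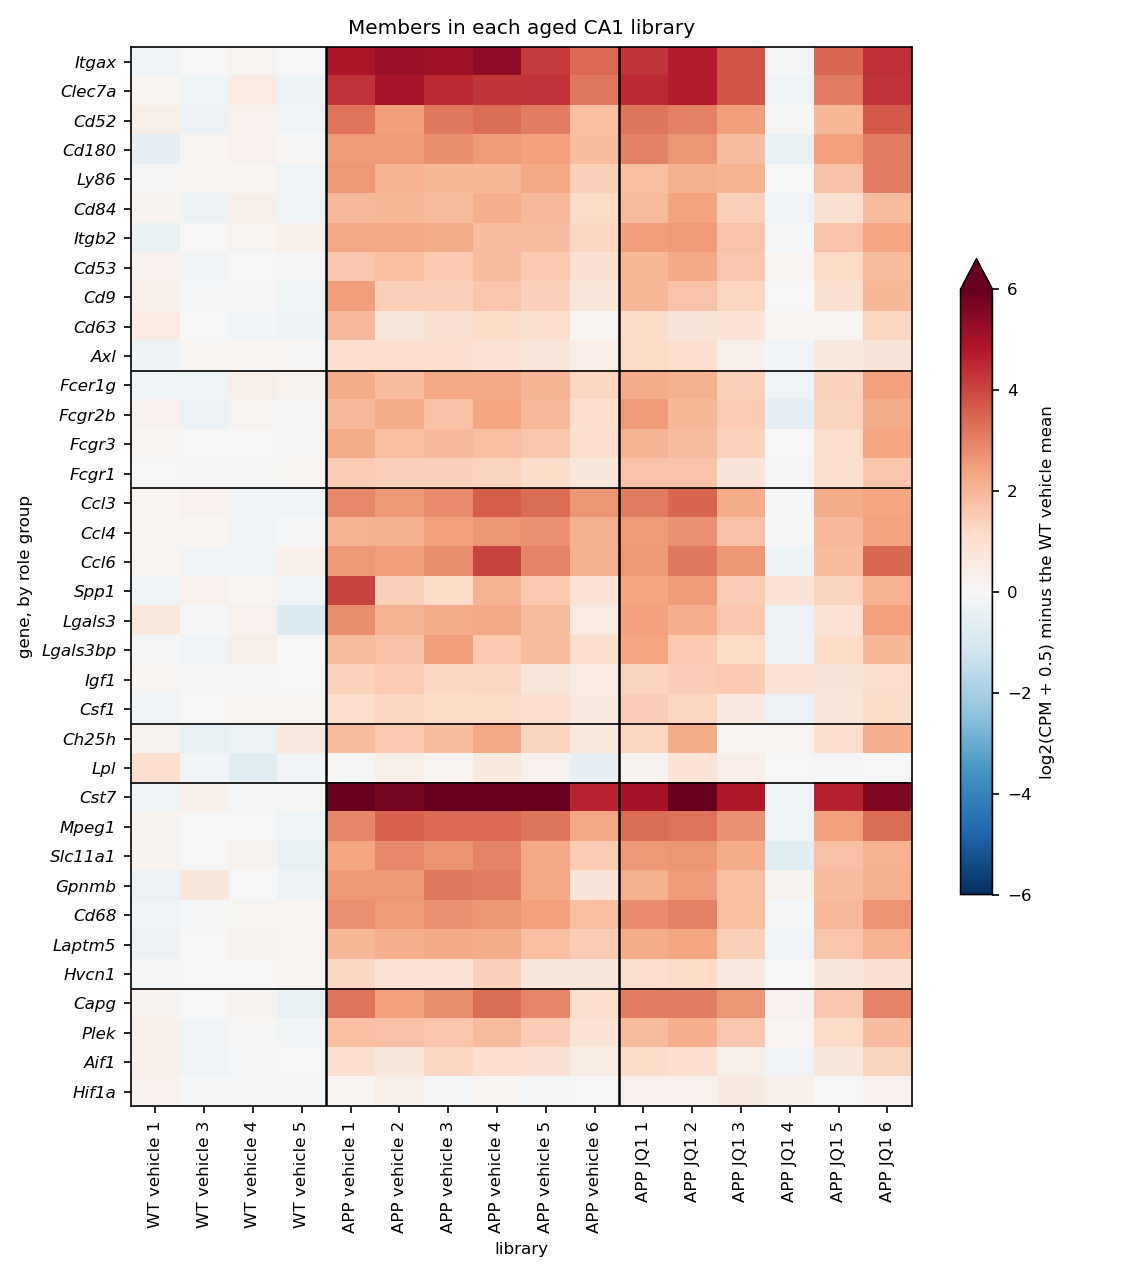
Each column is 1 aged library and each row 1 of the 36 members, in the order of their roles, and the colour gives log2(CPM + 0.5) minus the mean of the 4 WT vehicle libraries. The APP libraries were above WT for most members except Lpl and Hif1a, the column of the library labelled APP JQ1 replicate 4 looked like the WT columns, and Cst7 passed the upper end of the colour scale in several APP libraries.

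Without the library labelled APP JQ1 replicate 4 in the fit, 32 members were called higher, Aif1 being added, with a median log2 change of 2.10. In that fit 3.32% of all genes were called higher and 0.224% lower (3.55% in either direction). The log2 changes of single members, all from the fit with all libraries, moved by 0.0092 to 0.014 without it, while 34 of the 36 SEs became smaller, with a median of 0.28 in place of 0.42. With all libraries the count fell to 13 without WT vehicle replicate 1 and to 18 without WT vehicle replicate 3. Calls over all genes fell too, from 422 of 16962 genes called higher with all libraries to 153 of 17330 and 181 of 17341. An alternative chosen after the data were seen left out the library labelled APP JQ1 replicate 4 as well. The count of members then stayed between 30 and 32 whichever WT library was left out, beside 385 to 461 genes called higher.

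Sequence before the RefSeq start sites of the members was searched because 31 of them were called in 1 direction. RefSeq promoter entries (GRCm38.p6) were matched for 31 of the 36 members, and the 250 bases before the RefSeq start were searched for 12 letter strings on both strands. The 31 members searched are not the 31 called. No entry was matched for Cd52, Ccl4, Itgb2 and Hvcn1, which were called, or for Lpl. The uncalled Aif1, Cd63, Spp1 and Hif1a were searched. GENCODE places the gene start further upstream for some members, so that 14 of the 31 windows lay wholly before the GENCODE gene, 9 partly and 8 wholly inside it. The purine-rich strings GAGGAA and GGAAGT overlap in GAGGAAGT, a form bound by PU.1, the ETS factor that myeloid cells depend on. GAGGAA was found in 14 of 31 members (45.2%) against 25.9% of 27025 genes, and GGAAGT in 11 of 31 (35.5%) against 22.2%. The whole string GAGGAAGT was found in 1 of 31 members (3.23%) against 2.79% of genes, and CGCG, a pair of CpG sites, in 4 (12.9%) against 36.3%. The E-box CACGTG was found in 1 member, Hif1a (3.23% against 6.86%), and the AP-1 form TGANTCA in 4, Cd68, Cd84, Igf1 and Itgax (12.9% against 7.82%). These shares are descriptions of letters and no test was made. Shown here, chosen after the values were seen, are 4 members with very large changes, the abundant Laptm5 and the member Hif1a that was not called, with capitals where GAGGAA or GGAAGT occurs on either strand. The stretches lie at chr2:150570165-150570414 on the plus strand for Cst7, chr7:128129300-128129549 plus for Itgax, chr6:129472780-129473029 minus for Clec7a, chr11:83649379-83649628 minus for Ccl3, chr4:130913066-130913315 plus for Laptm5 and chr12:73907617-73907866 plus for Hif1a, each read 5′ to 3′ towards the RefSeq start. The window of Hif1a lies wholly inside its GENCODE gene, with the RefSeq start 6492 bases after the GENCODE start, and 191 of the 250 bases of the window of Laptm5 lie inside its GENCODE gene.
Cst7: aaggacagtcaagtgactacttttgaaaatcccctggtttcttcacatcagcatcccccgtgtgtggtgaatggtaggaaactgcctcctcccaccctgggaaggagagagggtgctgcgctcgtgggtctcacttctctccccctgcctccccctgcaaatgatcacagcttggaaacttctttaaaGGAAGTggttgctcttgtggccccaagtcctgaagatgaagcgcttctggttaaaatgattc
Itgax: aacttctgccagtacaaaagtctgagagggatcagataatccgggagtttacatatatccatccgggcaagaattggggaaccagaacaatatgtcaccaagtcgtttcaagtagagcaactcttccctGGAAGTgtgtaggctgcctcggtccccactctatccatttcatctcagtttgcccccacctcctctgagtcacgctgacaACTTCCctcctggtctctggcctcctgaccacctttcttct
Clec7a: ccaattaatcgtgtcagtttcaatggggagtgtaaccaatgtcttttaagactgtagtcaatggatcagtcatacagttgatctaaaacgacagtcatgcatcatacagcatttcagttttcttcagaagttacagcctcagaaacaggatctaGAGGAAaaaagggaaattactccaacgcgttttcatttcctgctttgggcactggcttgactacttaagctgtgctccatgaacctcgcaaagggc
Ccl3: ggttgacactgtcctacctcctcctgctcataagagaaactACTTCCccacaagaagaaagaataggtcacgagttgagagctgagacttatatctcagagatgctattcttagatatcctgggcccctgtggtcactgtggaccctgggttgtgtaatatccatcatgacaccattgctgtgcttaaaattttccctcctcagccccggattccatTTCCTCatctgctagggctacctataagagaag
Laptm5: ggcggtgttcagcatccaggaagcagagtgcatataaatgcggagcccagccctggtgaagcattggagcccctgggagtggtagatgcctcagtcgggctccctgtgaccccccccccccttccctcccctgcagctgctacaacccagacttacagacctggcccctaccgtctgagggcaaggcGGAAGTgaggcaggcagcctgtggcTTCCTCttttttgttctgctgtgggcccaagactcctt
Hif1a: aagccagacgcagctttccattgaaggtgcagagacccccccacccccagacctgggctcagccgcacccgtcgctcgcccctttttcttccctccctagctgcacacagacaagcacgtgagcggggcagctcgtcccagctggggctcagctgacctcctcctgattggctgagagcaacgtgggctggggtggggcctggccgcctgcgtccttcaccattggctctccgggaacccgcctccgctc
Hif1a had 0 matches to either string in this window, Itgax had 2 to GGAAGT, Cst7 had 1 to GGAAGT, Clec7a had 1 to GAGGAA, and Ccl3 and Laptm5 had 1 to each. The stretches shown do not stand for all members searched. Spp1 and Cd63, not called with all libraries, held both strings, and Aif1, likewise not called, held GAGGAA. The single GAGGAAGT was in Spp1. Some called members, such as Mpeg1 and Gpnmb, held neither GAGGAA nor GGAAGT.

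The lysosome and phagosome group rose as a whole, 7 of 7 members being called. This count and those of the other role groups stand beside the 2.49% of all genes called higher. Cst7, or cystatin F, an inhibitor of lysosomal cathepsins, had 0, 0.245, 0.0422 and 0.127 CPM in WT vehicle replicates 1, 3, 4 and 5. In the 6 APP vehicle libraries it ran from 13.7 through a median of 39.4 to 55.6 CPM. The lowest APP library was thus far above the highest WT library, and WT levels were around or under the level of 3 counts. The fitted log2 change was 8.40 ± 1.25 (SE; edgeR adjusted p = 0.00828), and it depends on the prior count, since only 9 counts were seen in the 4 WT libraries together. The ratio of pooled rates was 356, with an exact 95% interval of 187 to 779 that covers counting error only.

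Mpeg1, which encodes perforin-2, a pore-forming protein of phagocytes, had 13.4, 11.9, 12.02 and 9.76 CPM in the WT vehicle libraries and 61.5, 120 and 140 CPM as the lowest, median and highest APP vehicle library. The groups did not overlap, and the log2 change was 3.23 ± 0.54 (edgeR adjusted p = 0.00828). Slc11a1, a metal transporter of the phagosome, had 3.14, 2.74, 3.12 and 1.86 CPM in WT vehicle and 8.46, 17.9 and 24.04 CPM in APP vehicle, with a log2 change of 2.70 ± 0.51 (edgeR adjusted p = 0.00993). Gpnmb, a glycoprotein of lysosomes and melanosomes, had 2.79, 6.11, 3.54 and 2.83 CPM in WT vehicle and 6.55, 24.6 and 37.1 CPM in APP vehicle. Its lowest APP library, replicate 6, was only just above WT vehicle replicate 3, and its log2 change was 2.68 ± 0.49 (edgeR adjusted p = 0.00922). Cd68, a lysosomal membrane protein used as a marker of phagocytes, had 9.21, 9.63, 11.5 and 11.2 CPM in WT vehicle and 37.6, 65.6 and 71.8 CPM in APP vehicle. The WT values lay close together, and the log2 change was 2.57 ± 0.46 (edgeR adjusted p = 0.00926). Laptm5, a lysosomal membrane protein of blood cells, and Hvcn1, a proton channel, completed the group with log2 changes of 2.03 and 1.01. Laptm5 went from 23.3 to 33.9 CPM in WT vehicle to 86.5 to 146 CPM in APP vehicle, and Hvcn1 from 9.66 to 11.7 CPM to 17.1 to 28.9 CPM, without overlap in either.

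Among the surface receptors and adhesion proteins, 10 of 11 members were called. Itgax, the CD11c integrin chain, had 0.299, 0.391, 0.506 and 0.422 CPM in WT vehicle and 8.999, 28.3 and 37.3 CPM in APP vehicle. The groups were far apart, at 6 to 12 counts a WT library against 202 to 778 counts an APP library, and the log2 change was 5.93 ± 0.87 (edgeR adjusted p = 0.00828). Clec7a, the beta-glucan receptor dectin-1, had 0.349, 0.147, 0.590 and 0.127 CPM in WT vehicle and 6.50, 15.1 and 23.3 CPM in APP vehicle, a log2 change of 5.62 ± 0.92 (edgeR adjusted p = 0.00828). Only 3 to 14 counts a library stood behind the WT values of Clec7a, and its ratio of pooled rates was 49.7 with an exact 95% interval of 34.1 to 75.6. Cd52, a short surface glycoprotein of leukocytes, had 2.14, 1.12, 2.02 and 1.31 CPM in WT vehicle and 6.95, 17.8 and 21.2 CPM in APP vehicle (log2 change 3.26). Cd180, a Toll-like receptor relative, had 0.996, 1.91, 2.02 and 1.73 CPM in WT vehicle and 7.04, 11.97 and 14.05 CPM in APP vehicle (log2 change 2.76). Ly86, the partner of Cd180 at the surface, rose by a log2 change of 2.17, from 7.44 to 9.78 CPM in WT vehicle to 24.3 to 55.5 CPM in APP vehicle.

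The tetraspanin Cd9 had the highest level per length of all members in WT vehicle, at 21.2 ± 3.56 CPM per kb of exon (SD, n = 4). Its values were 52.6, 39.5, 45.5 and 36.1 CPM in WT vehicle and 72.5, 118 and 250 CPM in APP vehicle, with a log2 change of 1.64 ± 0.38 (edgeR adjusted p = 0.0352). One library, APP vehicle replicate 1, held the highest value by a wide gap. The other called members of this group were Cd84, Itgb2, Cd53 and Axl, from 2.13 for the adhesion receptor Cd84 to 0.83 for the phagocytic receptor kinase Axl on the log2 scale, with Itgb2, the integrin chain that pairs with Itgax, at 2.09 and Cd53, a leukocyte tetraspanin, at 1.65. Their lowest APP vehicle libraries were all above their highest WT vehicle libraries, at 4.32 against 2.28 CPM for Cd84, 12.4 against 6.17 CPM for Itgb2, 12.03 against 7.52 CPM for Cd53 and 74.9 against 62.3 CPM for Axl. Cd63, a second tetraspanin, had a log2 change of 1.04 (edgeR adjusted p = 0.122) and was not called. It had 27.4 to 47.5 CPM in WT vehicle and 36.9 to 131 CPM in APP vehicle, so that the groups overlapped by APP vehicle replicate 6 and WT vehicle replicate 1.

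All 4 genes of Fc receptors, which bind the constant part of antibodies, were called. Fcer1g, the shared signalling chain, had 6.18, 6.16, 9.87 and 8.70 CPM in WT vehicle and 19.02, 35.1 and 39.2 CPM in APP vehicle. The groups did not overlap, and the log2 change was 2.08 ± 0.41 (edgeR adjusted p = 0.0121). The inhibitory Fcgr2b and the activating Fcgr3 and Fcgr1 had log2 changes of 2.08, 1.84 and 1.36. Fcgr2b had 2.35 to 3.79 CPM in WT vehicle and 6.77 to 17.999 CPM in APP vehicle, Fcgr3 10.6 to 12.05 and 23.4 to 53.3 CPM, and Fcgr1 4.09 to 5.03 and 7.35 to 13.7 CPM, and in all of these APP vehicle replicate 6 was the lowest APP library. Fcgr2b, Fcgr3 and Fcer1g lie within chromosome 1 from 170958617 to 171234365 (GRCm38, GENCODE), and Fcgr2b and Fcgr3 are related in sequence, so reads could be divided between them in ways the sources used here do not describe.

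Of the 8 chemokines, growth factors and other secreted proteins, 7 were called. Ccl3, a chemokine that draws in macrophages, had 0.249, 0.342, 0.126 and 0.0845 CPM in WT vehicle and 3.71, 4.48 and 8.08 CPM in APP vehicle. Its relative Ccl4 had 0.149, 0.147, 0.0422 and 0.0845 CPM in WT vehicle and 2.08, 2.48 and 3.51 CPM in APP vehicle. Both were at 1 to 7 counts a WT library, so their log2 changes of 4.68 ± 0.73 and 4.60 ± 0.65 (edgeR adjusted p = 0.00828 and 0.00662) are read beside the ratios of pooled rates, 26.4 with an exact 95% interval of 16.4 to 45.6 for Ccl3 and 26.0 with 13.5 to 57.2 for Ccl4. Ccl6, a myeloid chemokine, had 1.39, 0.978, 0.928 and 1.56 CPM in WT vehicle and 6.95, 10.4 and 27.97 CPM in APP vehicle, a log2 change of 3.40 ± 0.65 (edgeR adjusted p = 0.0101). The 3 chemokine genes lie together on chromosome 11, from 83587882 to 83664683. Csf1, a growth factor on which microglia depend, had 21.6, 24.9, 27.4 and 26.8 CPM in WT vehicle and 37.0, 53.8 and 59.8 CPM in APP vehicle, a smaller rise with a log2 change of 1.05 ± 0.25 (edgeR adjusted p = 0.0364). Igf1, an insulin-like growth factor, and the galectin-binding protein Lgals3bp were called at 1.19 and 1.86, and Lgals3, galectin-3, at 2.41 with an adjusted p of 0.0499 in edgeR (0.00998 without the library labelled APP JQ1 replicate 4). Igf1 had 8.68 to 10.6 CPM in WT vehicle and 13.3 to 28.05 CPM in APP vehicle, and Lgals3bp 9.88 to 15.2 and 24.06 to 68.3 CPM. Lgals3 had 0.380 to 1.94 CPM in WT vehicle and 1.69 to 10.3 CPM in APP vehicle, and only APP vehicle replicate 6 lay within the WT range.

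Spp1, or osteopontin, had 2.69, 4.16, 3.88 and 2.91 CPM in WT vehicle and 6.33, 10.3 and 64.6 CPM in APP vehicle. All APP vehicle libraries were above all WT libraries, but 1 library, replicate 1, held 64.6 CPM and the next highest 16.1 CPM. The log2 change of Spp1 was 2.49 ± 0.66 and it was not called (edgeR adjusted p = 0.0686).

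Lipid handling was divided. Lpl, or lipoprotein lipase, had 128, 57.2, 42.4 and 57.7 CPM in WT vehicle and 46.0, 75.2 and 97.8 CPM in APP vehicle. The highest of all 10 values was a WT library, and the log2 change was 0.058 with a 95% interval of -0.53 to 0.65 (edgeR adjusted p = 0.947). Ch25h, which makes 25-hydroxycholesterol, was called at 2.49 (edgeR adjusted p = 0.0438), with 0.147 to 0.760 CPM in WT vehicle, or 3 to 18 counts a library, and 0.846 to 3.83 CPM in APP vehicle.

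In the cytoskeleton, signalling and transcription group, 2 of 4 members were called. Capg, an actin capping protein of macrophages, had 2.14, 1.81, 2.19 and 1.18 CPM in WT vehicle and 4.32, 15.9 and 22.7 CPM in APP vehicle, a log2 change of 3.07 ± 0.57 (edgeR adjusted p = 0.00993). Plek, or pleckstrin, a signalling adaptor of blood cells, was called at 1.62, with 12.3 to 17.8 CPM in WT vehicle and 25.6 to 54.3 CPM in APP vehicle. Aif1, which encodes the microglial marker Iba1, had a log2 change of 0.92 with an adjusted p of 0.0508 in edgeR, and its groups, 7.19 to 10.5 CPM in WT vehicle and 11.6 to 20.3 CPM in APP vehicle, did not overlap. Hif1a, the hypoxia-inducible transcription factor, had 97.0, 77.1, 74.6 and 72.8 CPM in WT vehicle and 72.9, 82.1 and 101 CPM in APP vehicle. Its groups overlapped almost fully, and the log2 change was 0.055 with a 95% interval of -0.17 to 0.28.

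For single genes, the exact two-sided permutation test of the mean log2 values gave p = 0.00952, the smallest that 6 against 4 libraries allow, for every member given above with its 4 WT values except Lpl (p = 0.667) and Hif1a (p = 0.619). Many of these members were picked for a large change in these same libraries. Groups that do not overlap always give this p, so it adds no further support. Within APP vehicle, replicate 6 was the lowest library for 32 of the 36 members. Its sum of member levels was 817 CPM, against 1262 to 1650 CPM in the other 5 APP vehicle libraries and 451 to 563 CPM in WT vehicle.

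**Figure D2:**
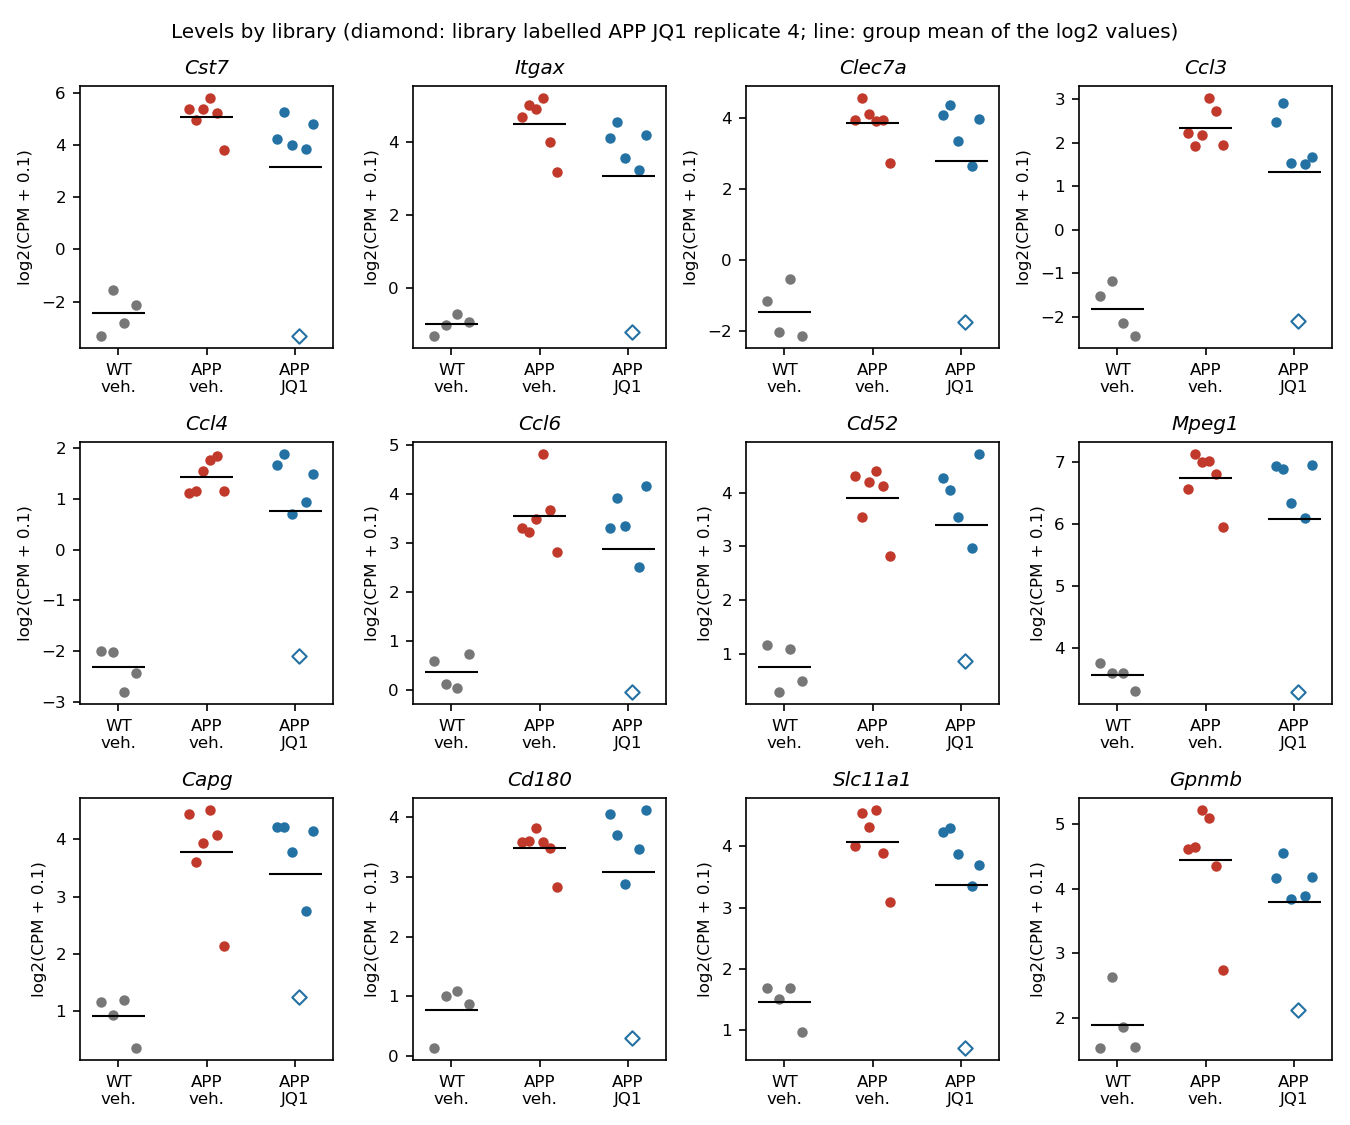
Each panel shows 1 of 12 leading members with log2(CPM + 0.1) on its own vertical axis, 1 point a library, and a line at the mean of the log2 values of each group (replicate 4 included for APP JQ1). WT and APP vehicle libraries do not overlap in any panel, and the diamond of the library labelled APP JQ1 replicate 4 lies near the level of WT, with 0 CPM of Cst7.

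The order of the members by level per length changed between the genotypes. In WT vehicle, Cd9 was followed by Hif1a with 13.6 ± 1.90 CPM per kb, Axl with 11.4 ± 1.61, Cd63 with 9.40 ± 2.43 and Fcer1g with 8.84 ± 2.13 (SD, n = 4), and from Hif1a downwards the ranges of mean ± SD of each pair of these neighbours overlapped. Itgax, Cst7, Clec7a, Ccl4 and Ccl3 were the 5 lowest, from 0.0842 to 0.262 CPM per kb. In APP vehicle, Cd9 was at 66.2 ± 29.5, Cd68 at 49.2 ± 10.2, Fcer1g at 37.4 ± 8.86 and Cst7 at 37.3 ± 14.1 CPM per kb (SD, n = 6). Cst7 had thus moved from the place second from last to the fourth, and it and Fcer1g did not differ beyond their spread.

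Genes of the same programme outside the 36 were read from a list of 22. In APP vehicle against WT vehicle, 14 of these were called higher and 0 lower, beside 2.49% and 0.0825% of all genes. The median log2 change of the 22 was 1.05. Without the library labelled APP JQ1 replicate 4, 15 of them were called higher, beside 3.32% of all genes. The 3 largest called changes were in Cd74, the invariant chain of MHC class II (5.60 ± 1.22, edgeR adjusted p = 0.0272), Lyz2, lysozyme (3.36 ± 0.58, adjusted p = 0.00879), and Tyrobp (3.17 ± 0.49, adjusted p = 0.00828). Of 13 genes of resting, or homeostatic, microglia, 7 were called higher and 0 lower (8 and 0 without that library), with a median of 1.03, among them Olfml3 (1.33) and Csf1r (1.28). The homeostatic sum was 396 to 432 CPM in WT vehicle, 698 to 1111 CPM in APP vehicle and 423 CPM in the library labelled APP JQ1 replicate 4. Per library, the member sum divided by the homeostatic sum was 1.04 to 1.37 in WT vehicle and 1.17 to 1.94 in APP vehicle, ranges that overlapped, and it was 1.14 in the library labelled APP JQ1 replicate 4 and 1.19 to 1.41 in the other APP JQ1 libraries.

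**Figure D3:**
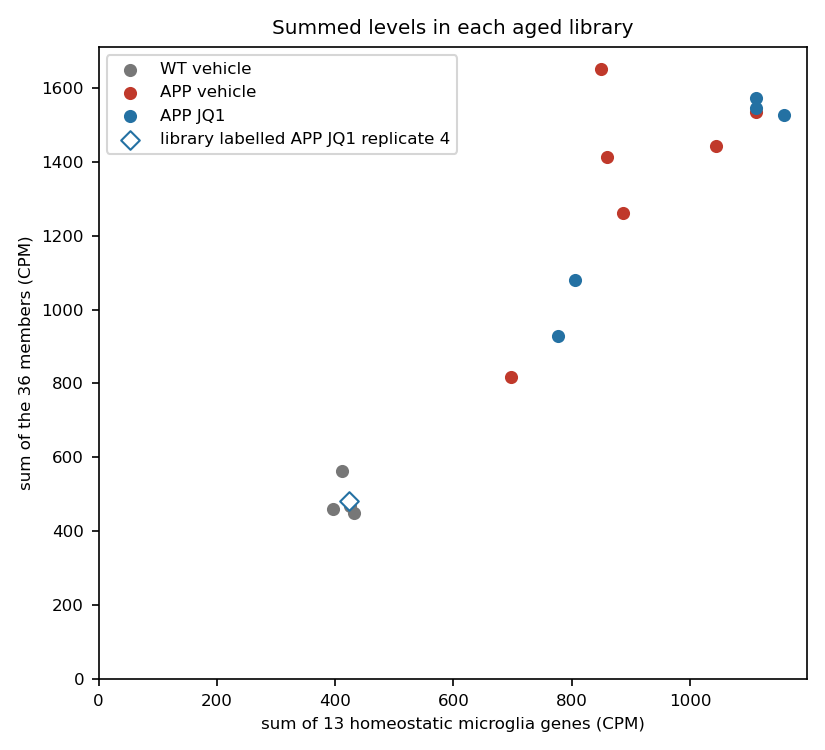
Each point is 1 aged library, with the summed CPM of the 13 homeostatic genes on the horizontal axis and of the 36 members on the vertical axis. WT vehicle libraries lie at 396 to 432 and 451 to 563 CPM, the library labelled APP JQ1 replicate 4 lies among them, and the other APP libraries lie above them on both axes.

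Markers of other cell types were read beside the 2.49% of all genes called higher. Of 9 markers of border and blood macrophages 7 passed the filter on low counts and 0 were called (edgeR, with 1 at an unadjusted p under 0.05), their sum being 4.83 to 11.3 CPM in WT vehicle and 7.93 to 18.2 CPM in APP vehicle. All 7 were higher in APP vehicle, with a median log2 change of 0.55. The 6 markers of neutrophils and T cells summed to at most 3.33 CPM in WT vehicle and 4.47 CPM in APP vehicle, with 5 of them at 0 in at least 1 library of each group. Of 6 astrocyte markers 2 were called higher (3 without the library labelled APP JQ1 replicate 4), and their sum, Gfap included, was 1236 to 1320 CPM in WT vehicle and 2287 to 6362 CPM in APP vehicle. An unadjusted p under 0.05 by edgeR was found for 5 of these 6. The part of these cells in the member levels was not tested.

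The next comparison asked what JQ1 changed in the aged APP mice. None of the 36 members was called in APP JQ1 against APP vehicle, by edgeR (0 at an unadjusted p under 0.05) or by DESeq2 (0 called, 1 at an unadjusted p under 0.05), where 1.08% of all genes were called by edgeR (0.619% higher and 0.466% lower) and 17.6% had an unadjusted p under 0.05. DESeq2 called 749 of 14049 genes, and 3381 genes had an unadjusted p under 0.05 by it. The members' log2 changes ran from -0.94 for Cst7 to 0.20 for Hif1a, 29 being below 0 and 7 above, with a median of -0.22 against -0.0010 over all genes. Without the library labelled APP JQ1 replicate 4 the median was -0.033, with 21 below 0 and 15 above, and again 0 were called by edgeR (1 at an unadjusted p under 0.05). In that fit 0.431% of all genes were called (0.366% higher, 0.0649% lower) and 13.6% had an unadjusted p under 0.05. In neither setting were the groups apart for any member, while 0.878% of all genes were apart upwards and 1.15% downwards with all libraries, and 0.990% and 1.24% without that one.

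The 6 members with the largest change between APP JQ1 and APP vehicle all pointed down with all libraries in the fit. Cst7 had 0 CPM in the library labelled APP JQ1 replicate 4 and 14.2, 15.9, 18.8, 27.9 and 38.2 CPM in the other 5 APP JQ1 libraries, against 13.7 to 55.6 CPM in APP vehicle. Its log2 change was -0.94 with a 95% interval of -2.28 to 0.41 (edgeR adjusted p = 0.467), and -0.67 with an interval of -1.37 to 0.03 without that library (adjusted p = 0.388). Itgax had 0.333 CPM in that library and 9.43, 11.7, 17.4, 18.3 and 23.3 CPM in the other 5, against a median of 28.3 CPM in APP vehicle. The ranges overlapped for both genes, and the log2 change of Itgax was -0.91 (-2.07 to 0.25, edgeR adjusted p = 0.407), or -0.65 (-1.30 to -0.001, unadjusted p = 0.0497, adjusted p = 0.368) without the library. Gpnmb had 4.27 CPM in that library and 14.2, 14.7, 17.8, 17.9 and 23.4 CPM in the other 5, with a log2 change of -0.67 (-1.49 to 0.16) and -0.47 without it. Ccl3 had 0.133 CPM in it and 2.77, 2.78, 3.11, 5.44 and 7.40 CPM in the others, with -0.51 (-1.53 to 0.52) and -0.26. Slc11a1 had 1.53 CPM in it and 10.1, 12.8, 14.5, 18.8 and 19.7 CPM in the others, with -0.45 (-1.30 to 0.40) and -0.21. For each of these the library labelled APP JQ1 replicate 4 was the lowest of the group, and the change came closer to 0 without it. Spp1 had 6.40 CPM in that library and 9.17, 10.3, 15.7, 19.7 and 22.3 CPM in the others, with -0.46 (-1.59 to 0.67) and -0.31, and without APP vehicle replicate 1, which held 64.6 CPM, its log2 change was 0.46, in the other direction.

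The member with the highest level per length in each role group was followed in both APP groups. Cd9 ran from 43.9 CPM in the library labelled APP JQ1 replicate 4 through a median of 124 to 171 CPM in APP JQ1, Fcer1g from 6.20 through 28.2 to 43.9 CPM, and Cd68 from 9.40 through 55.9 to 88.0 CPM. Csf1 ran from 19.7 through 48.6 to 70.04 CPM in APP JQ1, and Lpl, lowest in replicate 5, from 62.2 through 70.7 to 116 CPM. These ranges lay over those of APP vehicle. Hif1a ran from 79.1 through 95.5 to 115 CPM, with the largest positive change of the members, 0.20 (-0.001 to 0.41, edgeR adjusted p = 0.288). Clec7a ran from 0.200 through 12.7 to 20.3 CPM, Mpeg1 from 9.66 through 99.4 to 123 CPM and Capg from 2.27 through 15.6 to 18.6 CPM, all lowest in the library labelled APP JQ1 replicate 4. Likewise, Cd52 ran from 1.73 through 13.98 to 26.3 CPM, Cd180 from 1.13 through 11.98 to 17.3 CPM, Ccl6 from 0.866 through 9.89 to 17.8 CPM and Ccl4 from 0.133 through 2.26 to 3.60 CPM.

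The intervals show what size of change these libraries could leave unseen. With all 6 APP JQ1 libraries the 95% interval lay within 1 log2 unit of 0 for 20 of the 36 members, and without the library labelled APP JQ1 replicate 4 for 31 of 36. The exact two-sided permutation tests over all 6 libraries gave p = 0.0649 for Cst7, p = 0.0931 for Itgax, p = 0.255 for Gpnmb and p = 0.0649 for Hif1a, where 6 against 6 could reach 0.00216. The member sum was 482 CPM in that library and 927 to 1571 CPM in the other 5 APP JQ1 libraries, against 817 to 1650 CPM in APP vehicle, so the sums of the 2 groups lay over each other. In the other lists, 0 of 22 other disease-associated microglia genes and 0 of 13 homeostatic genes were called between APP JQ1 and APP vehicle by edgeR, with 1 of each at an unadjusted p under 0.05. Over all genes 1.08% were called. The log2 changes ran from -1.40 to 0.18 among the 22 and from -1.64 to 0.18 among the 13, so each list held a fall larger than that of any member. The authors' own fit, at an adjusted p under 0.05, lists Fcrls, of the homeostatic list, as lowered by JQ1 in APP mice.

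**Figure D4:**
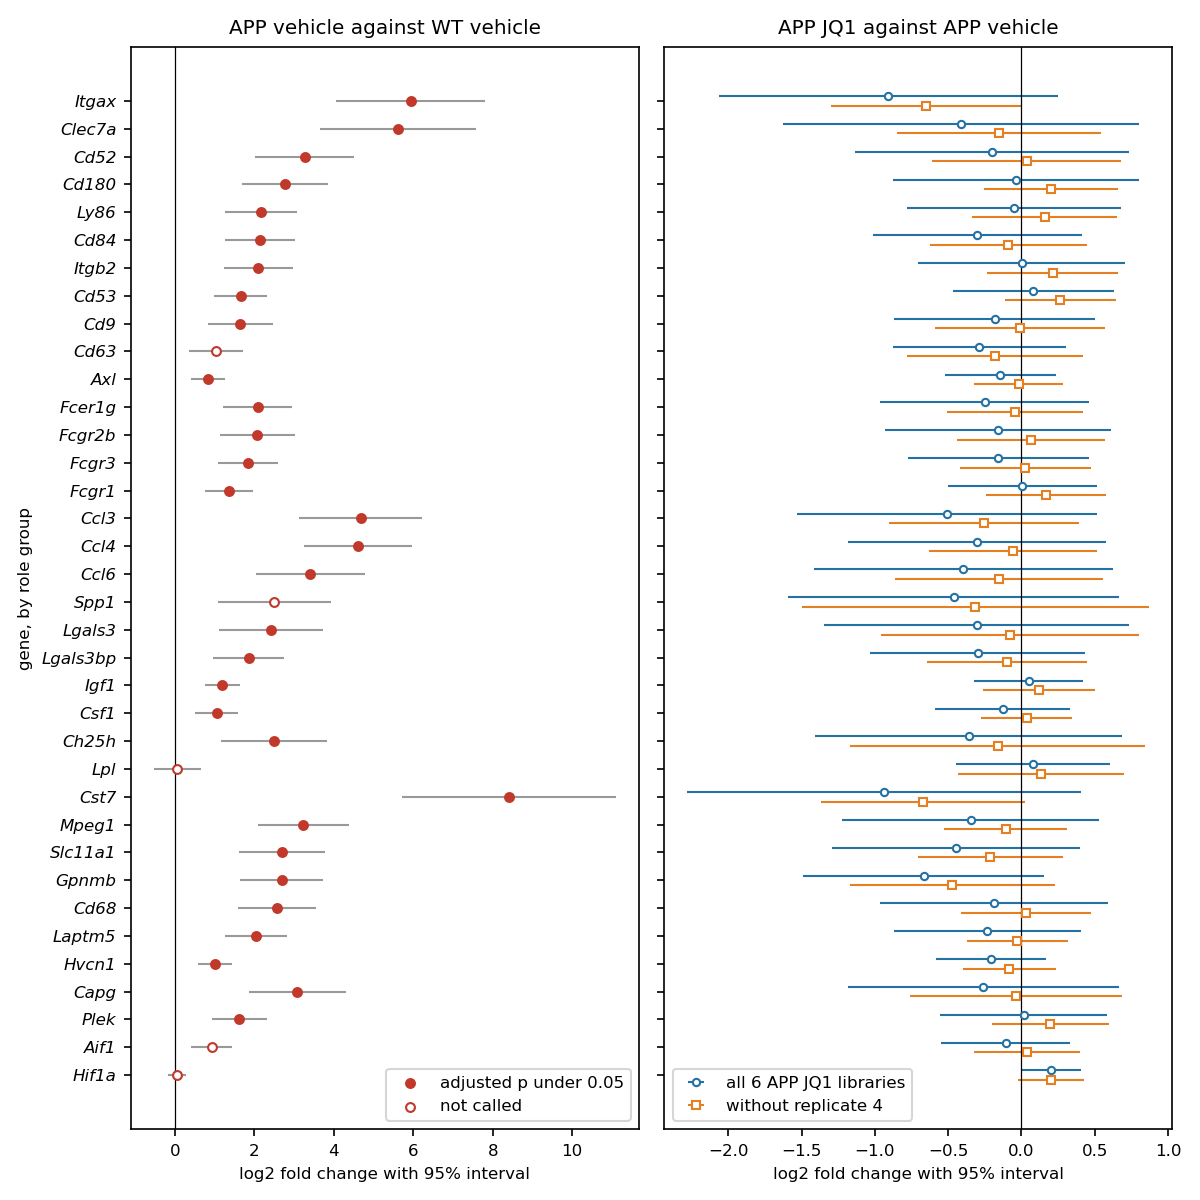
Fitted log2 changes with 95% intervals are shown for the 36 members, at the left for APP vehicle against WT vehicle, with filled points at an adjusted p under 0.05, and at the right for APP JQ1 against APP vehicle with all 6 APP JQ1 libraries and without replicate 4. At the left 31 points are filled, and at the right all 36 intervals hold 0 with all libraries and 35 without replicate 4.

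Against WT vehicle, most members were also called higher in the JQ1-treated APP mice. This comparison shares its WT libraries with that of APP vehicle, so the values of both are given side by side and not as separate evidence. In APP JQ1 against WT vehicle, 24 of 36 members were called higher and 0 lower, where 1.93% of all genes were called higher and 0.130% lower (2.06% in either direction), with a median log2 change of 1.97. Without the library labelled APP JQ1 replicate 4 it was 32 of 36 beside 3.60% of all genes (0.242% lower and 3.84% in either direction), with a median of 2.15. Cst7 was at 7.47 with that library and 7.72 without it (8.40 in APP vehicle against WT vehicle), Itgax at 5.02 and 5.27 (5.93), Clec7a at 5.21 and 5.46 (5.62), and Gpnmb at 2.01 and 2.20 (2.68). Every APP JQ1 library other than the one labelled replicate 4 was above every WT library for 32 members, against 3 members (Igf1, Spp1 and Capg) with it, beside 5.87% and 2.55% of all genes. The members not called without it were Cd63, Spp1, Lpl and Hif1a.

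The count of 24 rested on the WT libraries while the library labelled APP JQ1 replicate 4 was in the fit. It was 10 without WT vehicle replicate 1, beside 109 of 17330 genes called higher, where all libraries gave 327 of 16962. Without WT vehicle replicate 3, 4 or 5 it was 1, beside 24 of 17341, 26 of 17262 and 11 of 17280 genes called higher. With the library labelled APP JQ1 replicate 4 also left out it was 30 or 31 in each case, beside 389 to 480 genes. With only APP JQ1 and WT vehicle in the fit it was 12, beside 211 of 16353 genes called higher.

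In young mice without the transgenes, the question was whether JQ1 moved the members from their resting level. Of the 36 members 29 passed the filter on low FPKM, and Itgax, Clec7a, Ccl3, Ccl4, Lgals3, Ch25h and Cst7 did not. None of the 29 was called by limma, where 0.00543% of 18420 loci were called, and the median log2 change on the log2(FPKM + 0.1) scale was -0.045 against 0.0025 over all loci. At an unadjusted p under 0.05 there were 2 members and 4.65% of all loci. Axl ran from 19.02 through 21.6 to 25.4 FPKM in young vehicle and from 13.6 through 17.6 to 22.2 FPKM in young JQ1, with a log2 change of -0.25 (95% interval -0.44 to -0.07, limma unadjusted p = 0.0105, adjusted p = 0.981). The joined Aif1 locus ran from 10.4 through 14.0 to 18.8 FPKM in young vehicle and from 9.48 through 12.1 to 13.6 FPKM in young JQ1, with -0.30 (-0.52 to -0.08, unadjusted p = 0.0105, adjusted p = 0.981). Both pairs of groups overlapped, and neither gene passed the adjustment.

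The members that led the aged changes were at the bottom of the young levels. In young vehicle, Cst7 ran from 0 through 0.0668 to 0.437 FPKM, Clec7a from 0.0183 through 0.0844 to 0.225 FPKM and Itgax from 0.00974 through 0.0307 to 0.0517 FPKM. At the other end, Cd63 was at 53.3 ± 5.01 FPKM, Cd9 at 43.8 ± 2.60 FPKM and Laptm5 at 23.7 ± 2.76 FPKM (SD, n = 8). The first 2 of these lay apart by more than their SDs. FPKM and CPM per kb come from different processing, so levels were not compared between the experiments. The narrowest intervals among the role leaders were for Cd68, a log2 change of -0.021 (-0.15 to 0.11), and for Hif1a, 0.076 (-0.067 to 0.22), and Cd9 (-0.095), Fcer1g (-0.062), Csf1 (-0.12) and Lpl (-0.091) also had intervals that held 0. No member had groups that did not overlap, which 0.0271% of all loci showed.

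**Figure D5:**
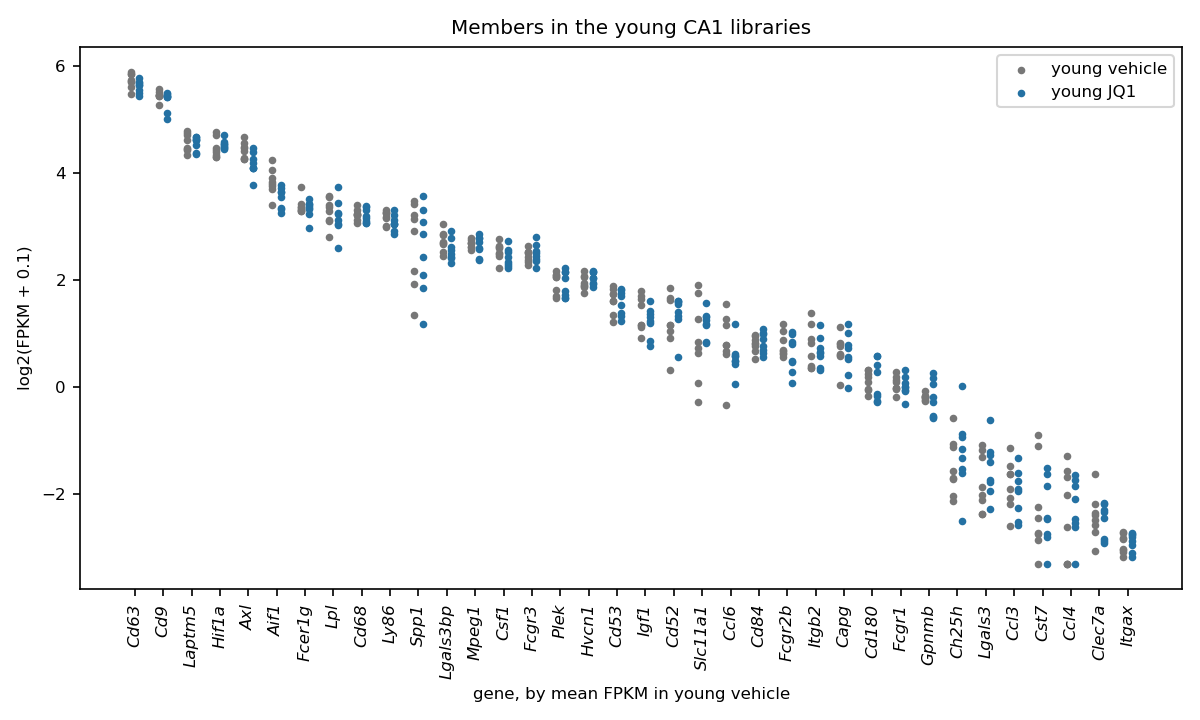
Each point is 1 young library, with log2(FPKM + 0.1) on the vertical axis and the 36 members ordered by their mean in young vehicle on the horizontal axis, vehicle at the left and JQ1 at the right of each place. The points of both groups overlap for each member, and Itgax, Clec7a, Ccl4, Cst7 and Ccl3 have the lowest vehicle means.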

How the data were processed

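CA1 tissue was sequenced on a HiSeq2000. The labels name CASAVA 1.8.2, STAR, TopHat, HTSeq, Cufflinks and Cuffdiff. The authors' methods give alignment to mm10 with STAR and counting with HTSeq, and which libraries went through TopHat is not given in the sources used here. The deposited counts are whole numbers with no normalization. The authors' FPKM of the young mice came from Cufflinks and Cuffdiff, scaled to length and depth, with depth unknown. Versions other than that of CASAVA, and the counting mode, are not given in the sources used here. Counts were scaled by TMM to CPM and tested in edgeR 4.0.16 (filterByExpr, robust quasi-likelihood, 1 fit of 3 groups). FPKM were tested in limma 3.58.1 (trend, robust) on log2(FPKM + 0.1) for loci with at least 0.5 FPKM in at least 8 libraries. P-values were adjusted by Benjamini-Hochberg over all features, and 95% intervals used the tests' degrees of freedom. DESeq2 1.42.0 was an alternative. Scripts were tested on simulated data, with R 4.3.3, Python 3.11.15 and scipy 1.17.1. Levels per length used GENCODE exon lengths (GRCm38). Libraries of a group differed by more than sampling noise (chi-square per gene 5.32 or more). The members and lists were chosen with earlier results of these data known. All members are named; those described with values were the 12 called ones with the largest change in APP vehicle against WT vehicle, the 6 with the largest in APP JQ1 against APP vehicle, and the highest per length of each role group in WT vehicle.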

Additional observations from a re-analysis of the deposited data

Results flagged for a closer look

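Of 180 sets of values tested (36 members in 5 groups), 9 had 1 library with a gap to the others beyond Dixon's 95% limit. That limit passes 1 set in 20 by chance, and 9 of 180 is the same share. The sets here share libraries, so a count due to chance could stray further from that share than with separate sets. Which of the 9 are due to chance cannot be judged. In APP vehicle these were Cd9 in replicate 1 (250 CPM, the next highest being 137 CPM), Spp1 in replicate 1 (64.6 CPM, next 16.1 CPM), Ccl6 in replicate 4 (27.97 CPM, next 12.7 CPM) and Cd84 in replicate 6 (4.32 CPM, the next lowest being 7.43 CPM). In young vehicle it was Fcer1g in replicate 7 (13.3 FPKM, next 10.7 FPKM). In young JQ1 they were Ch25h in replicate 3 (0.913 FPKM, next 0.441 FPKM), Hif1a in replicate 3 (26.3 FPKM, next 23.9 FPKM), Ccl6 in replicate 8 (2.17 FPKM, next 1.42 FPKM) and Cd52 in replicate 3 (1.38 FPKM, the next lowest being 2.32 FPKM). The library labelled APP JQ1 replicate 4 was not singled out in this way for any member, though it was the lowest of its group for 32 of the 36. Gaps were taken on the CPM scale as a share of the whole range. A value near 0 below widely spread values therefore has a small share, so this rule cannot show that the library was like the others.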

How the results depend on the processing

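For APP vehicle against WT vehicle, leaving out libraries gave 13 (without WT vehicle replicate 1) to 34 members called and medians of 2.03 to 2.23 on the log2 scale. Over all genes, those fits called 153 to 563 higher. The replicate numbers did not pair the libraries (correlations of same-numbered deviations ran from -0.471 to 0.342 in the aged and from -0.0703 to 0.104 in the young libraries), and a block on replicate number left 2 members called, as with the block and GC correction (median 2.02), but 31 with the block when the library labelled APP JQ1 replicate 4 was left out. Over all genes, 34 of 16962 were called higher with the block, 17 of 16962 with GC correction added, and 468 of 16948 with the block without that library. A filter of at least 10 counts in every library, which tested 29 members, gave a median of 2.03. For APP JQ1 against APP vehicle, 0 members were called by edgeR or DESeq2 under every alternative run (0 or 1 at an unadjusted p under 0.05), and leaving out libraries gave medians of -0.37 to -0.033. For APP JQ1 against WT vehicle, leaving out libraries gave 1 (without WT vehicle replicate 3, 4 or 5) to 32 members called and medians of 1.80 to 2.18. Those fits of that comparison called 11 to 610 of all genes higher. There, the 2 groups alone gave 12 called, the block gave 1 (median 1.80), the block with GC correction 0 (median 1.69), GC correction a median of 1.85, the 10-count filter a median of 1.80, and the block without the library labelled APP JQ1 replicate 4 a median of 2.15. Over all genes, 211 of 16353 were called higher with the 2 groups alone, 20 of 16962 with the block and 16 of 16962 with GC correction added. For young mice 0 were called under every alternative run, with medians of -0.075 to -0.011 when a library was left out, and the block changed no call. 

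Signs changed for small changes. In APP vehicle against WT vehicle, leaving out libraries gave Lpl from -0.14 to 0.49 and Hif1a from -0.017 to 0.15. In APP JQ1 against APP vehicle it gave Cd9 from -0.31 to 0.086, Csf1 from -0.27 to 0.035, Cd68 from -0.38 to 0.033, Lpl from -0.066 to 0.18 and Spp1 from -0.65 to 0.46. There, GC correction gave Lpl -0.074 and Hif1a -0.0021, the block with GC correction gave Lpl -0.094, and the block without the library labelled APP JQ1 replicate 4 gave Cd9 0.047, Fcer1g 0.0059, Csf1 0.050, Spp1 0.091 and Cd68 0.028. In APP JQ1 against WT vehicle, Lpl ran from -0.057 to 0.62, and in young mice Cd68 ran from -0.046 to 0.0027. The causes were not tested. Depth limited Cst7, Clec7a, Itgax, Ccl3, Ccl4 and Ch25h in WT, and also Lgals3, at 9 counts in its lowest WT library. Alternatives that pair the library labelled APP JQ1 replicate 4 with another choice were added after seeing the data.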
